A study of Mus musculus with 27 samples.

Results

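The proteasome subunit genes were taken as all gene rows whose symbol is Psma, Psmb, Psmc, Psmd or Psme followed by a number. This gave 45 genes of the 24000 gene rows, and 44 of the 45 passed the filter on low counts that left 12073 genes to be tested. Psme2b, a single-exon relative of the activator gene Psme2, did not pass, with 0 counts in 22 libraries and 1 count in each of 5, and reads could be split between it and Psme2. Psmc3ip carries a matching symbol, but it encodes a binding partner of Psmc3 that acts in meiotic recombination and is no subunit, so it is counted with the members but placed in no subcomplex. The immunoproteasome genes Psmb8 and Psmb9 are also described apart from the constitutive subunits.

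All 7 groups were polyA RNA libraries of the mouse pro-B line Ba/F3, which needs the cytokine IL3 and was grown with IL3 at 1 ng/mL. Wild-type cells, which carried no hairpin, were kept without IL3 for 6 h (deprived, n = 5), or kept so for 6 h before 30 min of IL3 at 10 ng/mL (IL3, n = 5). The 5 hairpin groups were starved and stimulated in that same way after lentiviral transduction and puromycin selection, and carried a non-targeting hairpin (no-target, n = 5) or one against 1 of 4 genes, with n = 3 for each of STAT5A, STAT5B, LSD1 and HDAC3. The IL3 receptor activates STAT5A and STAT5B, which then act as transcription factors. LSD1 (gene Kdm1a) removes methyl groups from histones and HDAC3 removes acetyl groups. No hairpin group was sampled without IL3. Whether the lines were clones is not stated in the labels. Libraries of a group are labelled as biological replicates, without a word on what was repeated, so p-values measure the spread between these libraries.

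The proteasome degrades proteins tagged with ubiquitin. Its barrel-shaped 20S core has outer rings of alpha subunits (Psma genes), which gate entry, and inner rings of beta subunits (Psmb genes), of which Psmb5, Psmb6 and Psmb7 cut peptide bonds. The 19S cap holds a base and a lid. In the base, ATPases (Psmc genes) unfold substrates, and its Psmd subunits include a ubiquitin receptor. The lid, made of other Psmd subunits, removes ubiquitin. In cells of the immune system and after interferon, Psmb8, Psmb9 and Psmb10 can take the places of Psmb5, Psmb6 and Psmb7 and shift the peptides made towards those that MHC class I molecules present. Psmb11 does so in thymic epithelium and Psma8 replaces Psma7 in male germ cells. Psme1 with Psme2, Psme3 and Psme4 encode activators that can open the core in place of the 19S cap.

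Upstream sequence is shown for Psmb5 and Psmb6 and for the genes that replace them, Psmb8 and Psmb9, because these pairs are compared below. Sequences are from the RefSeq promoter table (GRCm38.p6), 5′ to 3′ on the strand of the gene, and cover the 250 bases before the RefSeq start, without bases that GENCODE annotates as UTR. The windows of Psmb8 and Psmb9 lie wholly in UTR exons of longer GENCODE transcripts, so 30 bases around one motif match are given. Capitals mark matches to TGANNNNGC (Psmb5, Psmb6, Psmb9) or to TTCNNNGAA, the site form that STAT factors bind (Psmb8). TGANNNNGC is a loosened form of the core of the antioxidant response element that NFE2-type factors bind.
Psmb5, chr14:54618023-54618245, minus strand: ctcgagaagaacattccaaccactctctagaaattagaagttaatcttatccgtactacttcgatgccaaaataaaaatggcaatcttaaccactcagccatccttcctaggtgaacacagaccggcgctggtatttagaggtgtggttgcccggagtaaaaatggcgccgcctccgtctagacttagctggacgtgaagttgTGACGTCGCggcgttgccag
Psmb6, chr11:70525107-70525356, plus strand: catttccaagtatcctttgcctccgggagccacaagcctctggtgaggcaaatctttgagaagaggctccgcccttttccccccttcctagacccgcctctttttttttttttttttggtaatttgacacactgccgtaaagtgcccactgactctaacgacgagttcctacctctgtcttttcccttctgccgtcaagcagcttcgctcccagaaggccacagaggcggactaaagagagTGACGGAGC
Psmb8, chr17:34198088-34198117, plus strand: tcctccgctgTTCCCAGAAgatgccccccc
Psmb9, chr17:34187371-34187400, minus strand: ccttgcgcgaTGATGGGGCggggcctcagt

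The first capital base lies 47 bases before the RefSeq start in Psmb5, 9 in Psmb6, 97 in Psmb8 and 60 in Psmb9. Both strands of 41 promoter windows of 38 of the 45 genes were searched. TTCNNNGAA was found in 1 of them, that of Psmb8 (2.44%), against 7.02% of all 32851 promoter windows and 6.13% of the 11370 windows of tested genes. TGANNNNGC was found in 39.0% of the members' windows, against 35.2% of all windows and 36.7% of those of tested genes. The ETS-type site CCGGAAG was found in 31.7% of the members' windows, for example those of Psmc1, Psmd2 and Psme4, against 6.91% and 14.1%. CCAAT was found in 36.6%, against 33.8% and 35.5%. An interferon-type site, GAAA and GAAA with 2 bases between, was found in the windows of Psmb3, Psmd4 and Psmd9, which is 7.32%, against 2.98% and 2.52%. Any of these matches may overlap another, and a match is a description of letters.

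The members lie on 16 chromosomes, with 10 genes on chromosome 11 and 6 on chromosome 14 (GENCODE vM21, GRCm38). Psmb8 (chromosome 17, 34197721 to 34201454, plus strand) and Psmb9 (chromosome 17, 34181987 to 34187764, minus strand) are in the MHC region beside Tap1 and Tap2, which encode the transporter that carries peptides to MHC class I. The RefSeq starts of Psmb9 and Tap1 are 226 bases apart on opposite strands, and Psmb8 starts 496 bases after the end of Tap1. Exons of 14 members overlap exons of another gene. Those of Psmb9 share 212 bases with Tap1, and those of Psmb8 share 498 bases with the antisense gene Gm20496, both on the opposite strand. The library kit named in the labels does not mark strand, so reads from such stretches cannot be assigned to one gene.

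Depth was 5.48 to 33.8 M reads counted in genes per library. Levels are given in CPM, the reads of a gene per M counted reads, with library totals scaled by edgeR's TMM method. Among markers of the B lineage, Cd79a was at 24.2 to 70.8, Cd79b at 15.4 to 66.5 and Ptprc at 155 to 605 CPM, and the IL3 receptor gene Csf2rb was at 1770 to 7920 CPM. Pax5, Ebf1, Rag1, Igll1 and Il7r, which define B-cell progenitors, stayed at or under 0.705 CPM and were at 0 in 15 to 25 of the 27 libraries. The erythroid factors Gata1 (110 to 452 CPM) and Klf1 (18.5 to 255 CPM) were expressed, Hba-a1 was at 0 in all 27, and stroma markers stayed at or under 1.80 CPM. Each hairpin lowered its target: Stat5a by a log2 fold change of -1.48, Stat5b by -1.81, Kdm1a by -0.91 and Hdac3 by -1.18 against the no-target hairpin (edgeR quasi-likelihood test, adjusted p 0.000254, 9.84e-07, 0.00126 and 0.0130). The share of uniquely placed reads that lay outside genes was 14.0 to 24.9% in 5 libraries and 8.70 to 12.0% in 22. These were no-target replicates 1 and 3, LSD1 replicate 1 and HDAC3 replicates 1 and 2, which were also the 5 shallowest libraries (5.48 to 7.53 M). In 4 more libraries, multi-mapped reads were few, at 0.177 to 0.190 per counted read against 0.200 to 0.295 elsewhere.

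Proteasome genes were expressed at uneven levels. Per kilobase of annotated exon and averaged over the 27 libraries, Psmb4, a structural beta subunit, had the highest level, at 272 ± 101 CPM per kb (SD), and it also led with the principal transcript as length (448 CPM per kb). In the alpha ring, Psma6 led at 211 ± 55.1 CPM per kb, and Psma7 led with the principal transcript as length (282 CPM per kb). Psma8, the germ-cell form, was the lowest there, at 17.3 ± 3.13 CPM per kb against 83.9 ± 23.2 for Psma7. The thymic subunit Psmb11 was at 0.263 ± 0.128 CPM per kb, which was 5 to 38 counts per library.

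Among the ATPases of the base, Psmc5 was the highest (121 ± 38.1 CPM per kb) and Psmc2 the lowest (34.9 ± 6.73), although with the principal transcript as length Psmc3 was the highest and Psmc6 the lowest. Among the non-ATPase subunits of the base, the ubiquitin receptor Psmd4 was the highest (93.3 ± 29.5) and the scaffold Psmd1 the lowest (26.4 ± 3.08 CPM per kb). In the lid, Psmd7 led at 77.2 ± 19.7 and Psmd11 was the lowest at 11.6 ± 1.06 CPM per kb. Psmd11 was the lowest of the lid under all 3 lengths tried, whereas Psmd8 led with the other 2 lengths. The 19S assembly chaperones ranged from Psmd9 (6.80 ± 1.69) to Psmd10 (39.8 ± 6.54 CPM per kb). The activators ranged from Psme4 (19.9 ± 3.82) to Psme1 (99.95 ± 30.1 CPM per kb), with Psme2b at 0.0183.

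Psmb8 was at 57.3 ± 19.4 CPM per kb, below its constitutive counterpart Psmb5 at 91.8 ± 29.1. With the principal transcript as length, the order turned, with Psmb8 at 119 and Psmb5 at 91.8 CPM per kb. Psmb9 was at 26.7 ± 8.66 CPM per kb against 107 ± 43.4 for Psmb6, and Psmb10 at 40.5 ± 20.6 against 53.6 ± 12.1 for Psmb7. For these latter pairs the order held with the principal transcript, with Psmb9 at 72.3 against 250 for Psmb6 and Psmb10 at 52.6 against 158 CPM per kb for Psmb7. In bulk RNA, fewer cells that make a transcript and less RNA per cell cannot be told apart.

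The members also differed in how far they varied between libraries. Psmb10 had the largest coefficient of variation of the members other than Psme2b, at 50.9% of its mean. It was followed by Psmb11 (48.7%, at low counts), Psmb3 (41.1%), Psmb6 (40.7%) and Psmb4 (37.2%). The smallest were those of Psmd11 (9.16%), Psmd1 (11.7%), Psmd2 (12.0%) and Psmc6 (12.3%). Psmb8 (33.8%) and Psmb9 (32.4%) lay between.

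The summed level of the 31 constitutive subunits of the 20S core and the 19S cap (without Psma8, chaperones, activators and replacement subunits) was 7634 ± 1756 CPM in deprived wild type (n = 5) and 6674 ± 399 with IL3 (n = 5). It was 5396 ± 875 with the no-target hairpin (n = 5), 6200 ± 1046 with the STAT5A, 6545 ± 1110 with the STAT5B, 5843 ± 1443 with the LSD1 and 4933 ± 1414 CPM with the HDAC3 hairpin (n = 3 each). A single deprived library, replicate 3, stood at 10700 CPM, while the other 4 lay at 6414 to 7279. The 5 libraries with many reads outside genes were the 5 lowest, at 4048 to 4784 CPM, and the other 22 lay at 5445 or above.

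**Figure D1:**
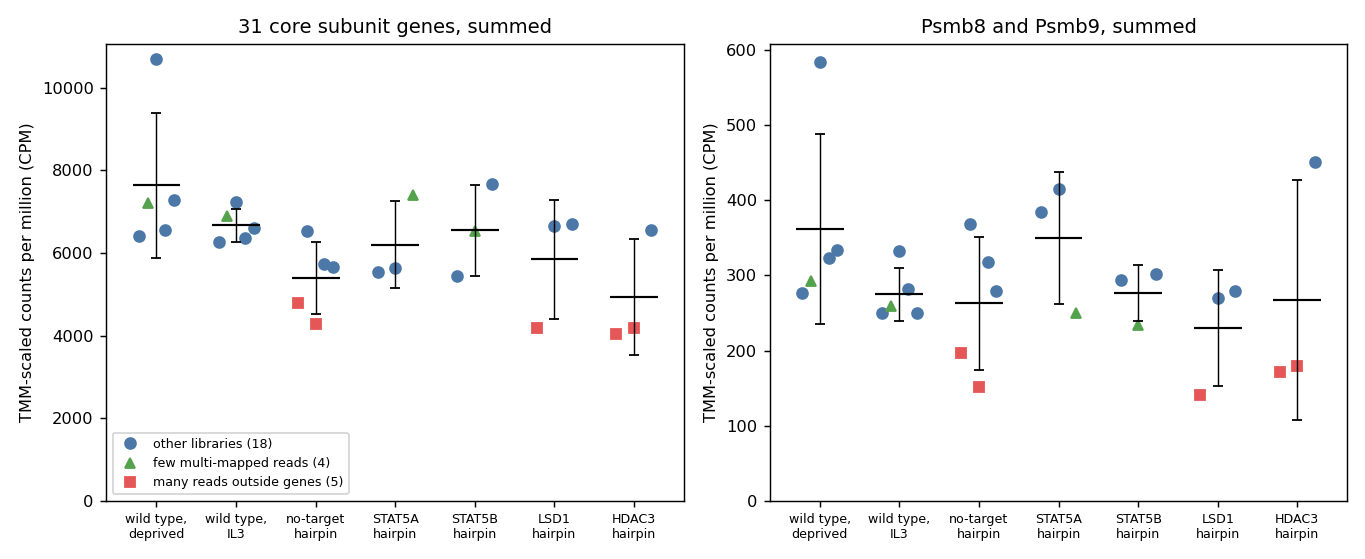
Summed TMM-scaled CPM of the 31 core subunit genes (left) and of Psmb8 and Psmb9 (right) in each library, by group, with the group mean and SD as lines and the marker giving the kind of library. The 5 libraries with many reads outside genes lie at 4048 to 4784 CPM on the left and at 141 to 196 CPM on the right, under all 22 others in both panels.

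Psmb8 and Psmb9 followed the same split: their sum was 141 to 196 CPM in those 5 libraries and 234 to 584 CPM in the other 22. Within the no-target group, which holds 2 such libraries and 3 others, 31 of 44 members were lower in both than in all 3 and 1 was higher, against 25.9% and 24.4% of all genes tested. Within the LSD1 group (1 against 2 libraries) 38 members were lower and 5 higher, against 41.9% and 38.1%, and within the HDAC3 group (2 against 1) 38 were lower and 4 higher, against 42.5% and 40.4%. The median log2 ratio of the members was -0.45, -0.68 and -0.69 in these groups, while that of all genes was -0.04, -0.07 and -0.01. In the HDAC3 group, Psmb9 and Psmb8 had the most negative ratios of all members (-1.47 and -1.32), and in the no-target group they did as well (-0.98 and -0.85). In the LSD1 group Psmb5 was the most negative (-1.38), and Psmb9 was at -1.12.

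Psme4, Psmd1 and Psmd11, which are among the members with long transcripts, were the other way round in all 3 groups. Psme4, the large activator PA200, was higher in the libraries with many reads outside genes, by a log2 ratio of 0.37, 0.54 and 0.41, the scaffold Psmd1 by 0.30, 0.13 and 0.19, and Psmd11 by 0.17, 0.19 and 0.15. Other members with long transcripts were lower in all 3 groups, among them Psmd5 (-0.018, -0.31 and -0.14), Psma2 (-0.55, -0.83 and -0.80) and Psma3 (-0.30, -0.48 and -0.66). Across the 44 members, Spearman's rho between the log2 ratio and the length of the principal transcript was 0.594, 0.70 and 0.695 in the no-target, LSD1 and HDAC3 groups. Across 10773 tested genes it was 0.652, 0.646 and 0.60. Genes are not independent replicates, and all members of a group share the same libraries. The part of transcript length, depth or RNA quality in these ratios was not tested.

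**Figure D2:**
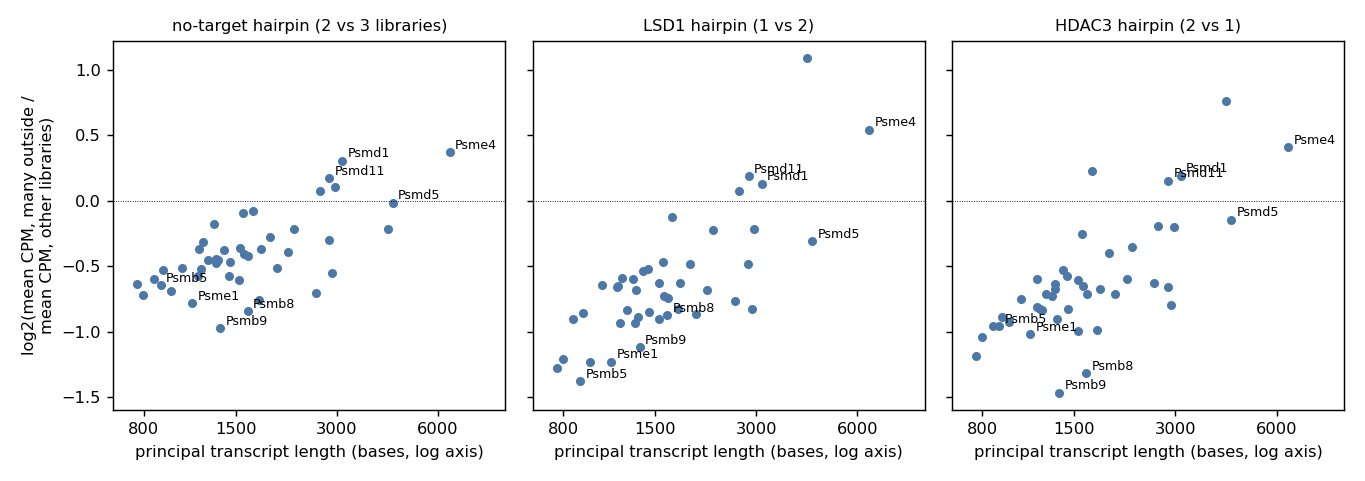
Log2 ratio of the mean CPM in libraries with many reads outside genes to that in the other libraries of the same hairpin group, against principal transcript length (log axis), with 1 point per tested member. Psmb5, with a short transcript, lies under 0 in all 3 panels, and among long transcripts Psme4, Psmd1 and Psmd11 lie above 0 and Psmd5, Psma2 and Psma3 under 0.

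The plot of each gene by library shows both departures as vertical bands through most genes of the core and the cap. Deprived replicate 3 held the highest level of all 27 libraries in Psmb4, Psmb6, Psmb8, Psmb9 and Psmb10, and the lowest Psme3 and Psme4 of the deprived libraries. The activators Psme3 (140 to 192 CPM) and Psme4 (170 to 250 CPM) were, in the 5 libraries with many reads outside genes, not low, and 4 of those 5 had the highest Psme4 levels of all 27.

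**Figure D3:**
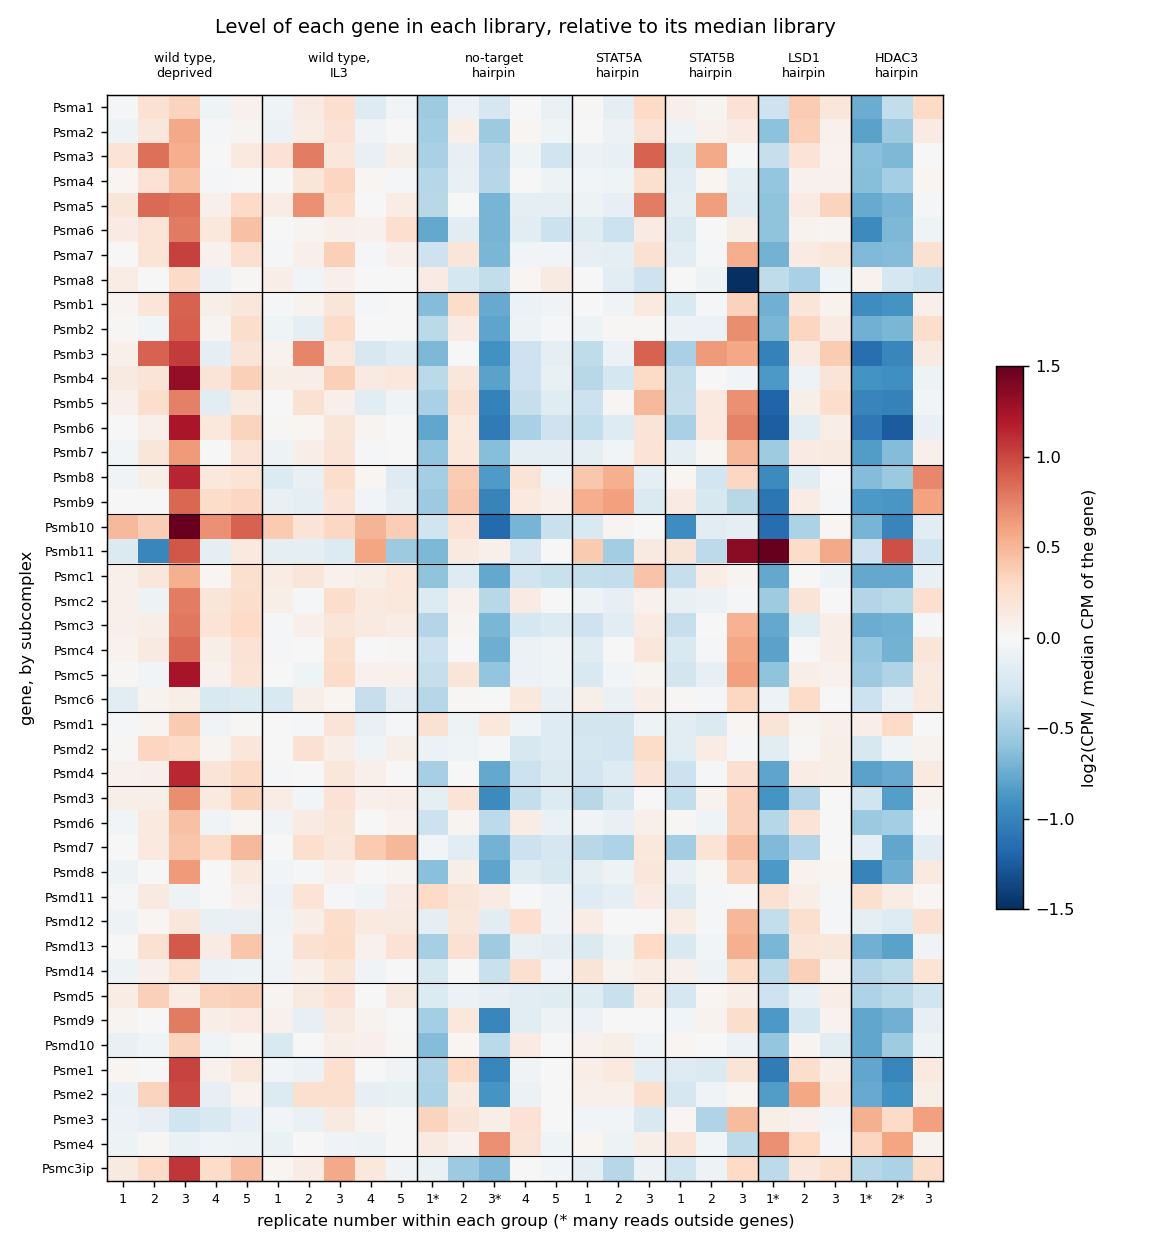
Log2 ratio of the CPM of each of the 44 tested members to its median over the 27 libraries, by subcomplex (rows) and library (columns, asterisks mark the 5 libraries with many reads outside genes). Red is above and blue below the median, and colours end at 1.5.

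The comparison of IL3-stimulated with deprived wild-type cells asks what 30 min of cytokine does after starvation. No member passed the test (edgeR quasi-likelihood, adjusted p under 0.05), against a background of 3.82% of all genes, 1 of 44 had an unadjusted p under 0.05 (background 14%), and DESeq2 gave 0 and 1. The values leaned to one side: 39 of 44 log2 fold changes were negative, with a median of -0.18 against -0.02 over all genes. All 8 alpha, all 7 constitutive beta and all 6 ATPase genes had negative values, with medians of -0.12, -0.27 and -0.18. The lid was at -0.03, with 3 of 8 positive. The median of all members was -0.04 without deprived replicate 3, so that this library carried most of the shift. No member had groups without overlap, higher or lower, against 6.73% and 4.51% of all genes.

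**Figure D4:**
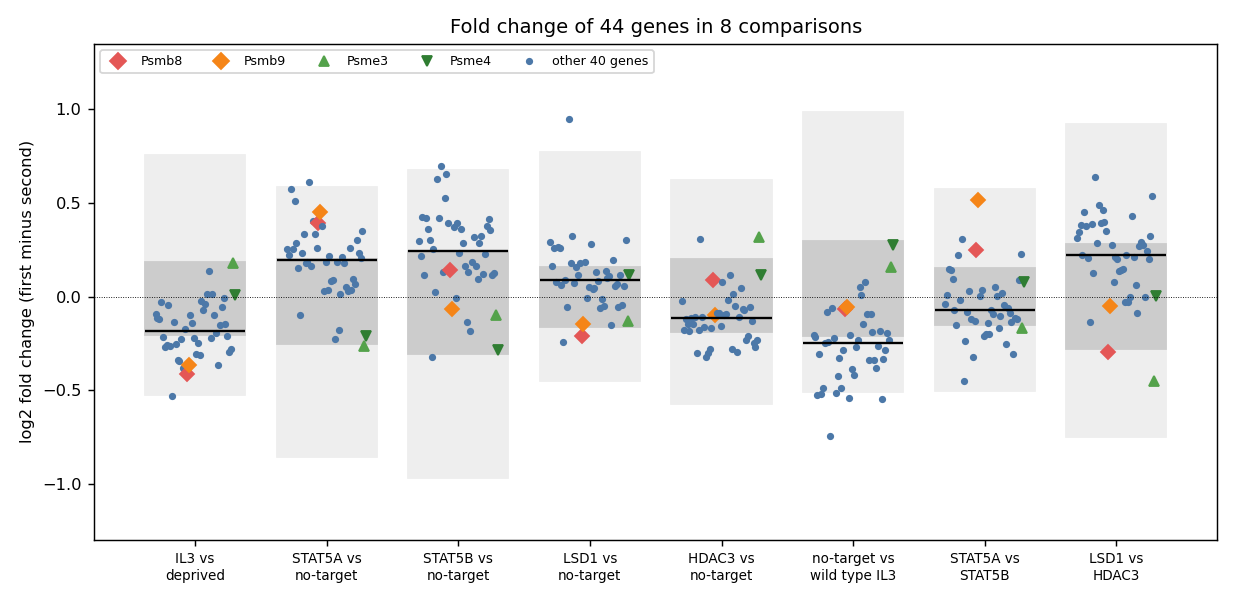
Log2 fold change of the 44 tested members in the 8 comparisons, with the members' median as a line, the central 50% and 90% of all 12073 tested genes as dark and light bands, and Psmb8, Psmb9, Psme3 and Psme4 marked. Most members lie under 0 for IL3 against deprived cells and for the no-target hairpin against wild type, and above 0 for both STAT5 hairpins.

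The immunoproteasome genes were lower after IL3 in each pair of wild-type libraries of equal number. Psmb8 went from 180 to 161, from 197 to 172, from 411 to 222, from 207 to 189 and from 214 to 162 CPM in pairs 1 to 5. Psmb9 went from 96.7 to 89.1, from 96.0 to 87.4, from 174 to 111, from 116 to 93.0 and from 119 to 87.7 CPM. In both genes replicate 3 was the highest library of its group and had the largest difference, and the ranges of the groups overlapped. Without pairing, Psmb8 had a log2 fold change of -0.42 ± 0.27 (SE, edgeR adjusted p = 0.544) and Psmb9 of -0.36 ± 0.28 (adjusted p = 0.621).

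Same-numbered wild-type libraries deviated together, so the replicate number was also fitted as a block. With the block, Psmb9 fell by 0.33 on the log2 scale (edgeR adjusted p = 0.0315), and it was the 1 member of 44 called, against a background of 21.3%. In that edgeR fit Psmb8 was at -0.35 (adjusted p = 0.0562) and Psmb10 at -0.46 (adjusted p = 0.0870). In a fit chosen after the data were seen, the block without replicate 3, Psmb8 (-0.21, edgeR adjusted p = 0.0157), Psmb9 (-0.25, 0.0167), Psmb10 (-0.23, 0.0300), the chaperone gene Psmd5 (-0.20, 0.0162) and the alpha subunit Psma6 (-0.13, 0.0337) fell, 5 of 44 against a background of 28.9%. All 3 immunoproteasome genes were among these 5, although the share of members called, like that in the block with all pairs, was below that of all genes.

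Psmb10 had the most negative fold change of the members, -0.53 ± 0.25 (SE, edgeR unadjusted p = 0.0453, adjusted p = 0.342). Its levels were 90.0, 83.5, 201, 104 and 119 CPM in deprived and 84.5, 73.4, 79.7, 91.8 and 83.5 in stimulated libraries 1 to 5. Each of the 5 pairs was lower with IL3, by a log2 ratio of -1.33 in pair 3 and of -0.09 to -0.51 in the other 4. Without deprived replicate 3 the value was -0.26. In all, 23 of 44 members (52.3%) were lower with IL3 in all 5 pairs, against 23.3% of all genes, and these included Psma6, Psmb4, Psmb5, Psmb7, Psmc3 and Psme1.

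Psme3, which encodes the nuclear activator PA28 gamma, had the most positive fold change, 0.18 ± 0.12 (SE, edgeR adjusted p = 0.557). It was at 125, 121, 108, 113 and 121 CPM in deprived and 128, 123, 145, 136 and 132 CPM in stimulated libraries. It was higher with IL3 in all 5 pairs, as was the lid gene Psmd12, which is 2 of 44 members against 19.9% of all genes. The ranges of Psme3 overlapped only between deprived replicate 1 and stimulated replicate 2.

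**Figure D5:**
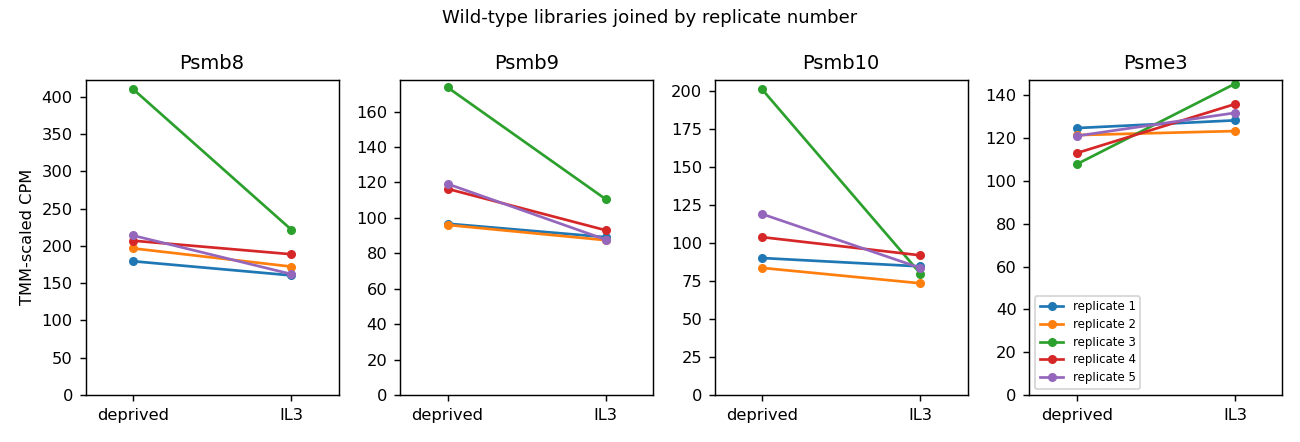
TMM-scaled CPM of Psmb8, Psmb9, Psmb10 and Psme3 in the 5 deprived and 5 IL3-stimulated wild-type libraries, with lines joining equal replicate numbers. Every line of Psmb8, Psmb9 and Psmb10 falls from left to right and every line of Psme3 rises, with replicate 3 the steepest.

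The comparisons of the STAT5 hairpins with the no-target hairpin ask which genes depend on each factor in stimulated cells. With the STAT5A hairpin, edgeR called 0 of 44 members (background 0.0663%), 1 had an unadjusted p under 0.05 (background 8.42%) and DESeq2 gave 0 and 1. The log2 fold changes were positive in 39 of 44, with a median of 0.19 against -0.00 over all genes, and the medians were 0.25 for the alpha and 0.26 for the constitutive beta ring. Without the 5 libraries rich in reads outside genes, of which 2 are no-target controls, the median was 0.03, and with a term for the kind of library it was -0.03. Psmb3, a structural beta subunit, had the most positive value, 0.61 ± 0.36 (SE, edgeR adjusted p = 0.584), and was at 82.1, 99.9 and 196 CPM with the STAT5A and 66.6, 107, 56.8, 85.9 and 96.0 CPM with the no-target hairpin. STAT5A replicate 3, a library with few multi-mapped reads, was apart from the others, the value was 0.14 without it, and with the term for the kind of library it was -0.06.

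The most negative value with the STAT5A hairpin was that of Psme3, -0.27 ± 0.14 (SE, edgeR adjusted p = 0.570), with 129, 129 and 113 CPM against 167, 151, 140, 154 and 132 CPM. It was the 1 member that was lower in all 3 STAT5A libraries than in all 5 controls, against 2.28% of all genes, and no member was higher in all (background 2.53%). Psmb8 was at 245, 268 and 168 CPM with the STAT5A and 131, 241, 103, 212 and 178 CPM with the no-target hairpin, a log2 fold change of 0.39 ± 0.31 (SE, edgeR adjusted p = 0.660). Psmb9 was at 140, 147 and 82.6 against 65.8, 127, 47.8, 107 and 101 CPM, a log2 fold change of 0.45 ± 0.33 (edgeR adjusted p = 0.630). For both genes STAT5A replicates 1 and 2 were above all controls and replicate 3 was among them. The values were 0.11 and 0.14 without the 5 libraries.

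With the STAT5B hairpin, edgeR called 0 of 44 members (background 0.34%), 0 had an unadjusted p under 0.05 (background 15.9%) and DESeq2 gave 0 and 1. Positive values were found in 37 of 44, with a median of 0.24 against -0.01 over all genes and 0.42 for the constitutive beta ring. Without the 5 libraries the median was 0.11, and with the term for the kind of library 0.04. Psmb3 was again the most positive, 0.70 ± 0.36 (SE, edgeR adjusted p = 0.340), at 76.3, 166 and 159 CPM, and was at 0.087 with that term. Psma8 was the most negative, -0.32 ± 0.22 (SE, edgeR adjusted p = 0.437), at 46.3, 43.8 and 15.7 CPM, of which replicate 3 was the lowest of all 27 libraries. Without that replicate its value was 0.02. Psma1 was the 1 member higher in all 3 STAT5B libraries (298 to 334 CPM) than in all 5 controls (200 to 289 CPM), against 2.91% of all genes, and none was lower in all (background 2.82%).

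Psmb8 and Psmb9 had values near 0 with the STAT5B hairpin. Psmb8 was at 189, 153 and 231 CPM (log2 fold change 0.14 ± 0.32, SE, edgeR adjusted p = 0.830) and Psmb9 at 104, 81.6 and 71.7 CPM (-0.06 ± 0.33, adjusted p = 0.933). Both ranges lay within those of the no-target controls. Psmb6, the counterpart of Psmb9, was at 147, 228 and 346 CPM against 120, 228, 98.8, 147 and 166 CPM, with a log2 fold change of 0.66 ± 0.32 (SE, edgeR adjusted p = 0.318), the smallest adjusted p of any member here. STAT5B replicate 3 was above all controls in Psmb6 and replicates 1 and 2 were among them, and the value was 0.30 without replicate 3.

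Set directly against each other, the STAT5A and STAT5B hairpin groups gave 0 called members by edgeR (background 0.0248%), 0 at an unadjusted p under 0.05 (background 3.39%), and 0 and 0 by DESeq2. The median was -0.07 against -0.00 over all genes. Psmb9 had the most positive value, 0.52 ± 0.37 (SE, edgeR adjusted p = 1, 95% interval -0.24 to 1.28), and Psmb11 the most negative, -0.45 ± 0.48, which turned to 0.14 without STAT5B replicate 3. The activator gene Psme2 was higher in all 3 STAT5A libraries (99.5, 100 and 112 CPM) than in all 3 STAT5B libraries (79.2, 91.0 and 96.2 CPM), against 3.4% of all genes, and no member was lower in all (background 3.68%).

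LSD1 and HDAC3 are co-regulators whose hairpins were compared with the same 5 no-target libraries. With the LSD1 hairpin, edgeR called 0 of 44 members (background 0.166%), 1 had an unadjusted p under 0.05 (background 6.71%) and DESeq2 gave 0 and 1. The median was 0.09 against -0.02 over all genes, with 32 of 44 positive. All 7 constitutive beta genes were above 0 (median 0.16), whereas Psmb8 (-0.21 ± 0.32) and Psmb9 (-0.15 ± 0.33) were under 0. Psmb8 was at 95.9, 166 and 186 CPM and Psmb9 at 45.2, 103 and 93.8 CPM with this hairpin, the first value in each case from the library with many reads outside genes. Without that library the values turned to 0.02 and 0.13, but this fit kept the 2 no-target libraries with many reads outside genes. Among the libraries without that trait, 2 LSD1 against 3 no-target, the means were 176 against 210 CPM for Psmb8. For Psmb9 they were 98.5 against 112 CPM.

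The thymic gene Psmb11 had the most positive value with the LSD1 hairpin, 0.95 ± 0.44 (SE, edgeR unadjusted p = 0.0403, adjusted p = 0.714). Its 3.10, 1.31 and 1.61 CPM, or 19, 19 and 35 counts, lay above the 0.676 to 1.19 CPM of all 5 controls, and it was the 1 member separated in this direction, against 1.71% of all genes. The highest of these was LSD1 replicate 1, a library with many reads outside genes, without which the value was 0.54. No member was lower in all LSD1 libraries (background 1.09%), and Psma8 had the most negative value, -0.25 ± 0.22.

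With the HDAC3 hairpin, edgeR called 0 of 44 members (background 0.0248%), 1 had an unadjusted p under 0.05 (background 5.69%) and DESeq2 gave 0 and 1. The values were negative in 36 of 44, including all 8 alpha, all 7 constitutive beta and all 6 ATPase genes, with a median of -0.11 against 0 over all genes. The median turned to 0.11, with 34 of 44 positive, without the 5 libraries rich in reads outside genes, which leaves 1 HDAC3 library whose spread is taken from the other groups. With the term for the kind of library the median was 0.00. Among the libraries of that kind, 2 HDAC3 against 2 no-target, it was -0.13.

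Psme3 had the most positive value with the HDAC3 hairpin, 0.32 ± 0.14 (SE, edgeR unadjusted p = 0.0316, adjusted p = 0.857), at 192, 161 and 202 CPM against 167, 151, 140, 154 and 132 CPM. HDAC3 replicate 2 lay under the highest control. It was 0.47 without the 5 libraries and with the term for the kind of library 0.32. Psmb4 had the most negative value, -0.32 ± 0.28, at 282, 278 and 497 CPM against 398, 592, 301, 424 and 488 CPM. It was -0.011 without the 5 libraries and -0.64 without HDAC3 replicate 3. The chaperone gene Psmd5 was the 1 member lower in all 3 HDAC3 libraries (105, 109 and 118 CPM) than in all 5 controls (126 to 136 CPM), against 1.59% of all genes, with a log2 fold change of -0.23 ± 0.12 (SE, edgeR adjusted p = 0.868). No member was higher in all (background 0.861%).

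Both immunoproteasome genes had a larger SD with the HDAC3 hairpin than in the other 6 groups. Psmb8 was at 118, 127 and 306 CPM, with the third library above all others except deprived replicate 3, and its log2 fold change was 0.09 ± 0.32 (SE, edgeR adjusted p = 0.958). Psmb9 was at 52.7, 52.5 and 146 CPM, with a log2 fold change of -0.10 ± 0.33 (edgeR adjusted p = 0.955), which turned to 0.39 without the 5 libraries. The 2 low libraries in each gene are those with many reads outside genes.

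Between the LSD1 and HDAC3 hairpins, edgeR called 0 of 44 members (background 0.82%), 2 had an unadjusted p under 0.05 (background 14.2%) and DESeq2 gave 0 and 2. The median was 0.22 against 0.00 over all genes, and it was 0.02 without the 5 libraries, of which LSD1 holds 1 and HDAC3 holds 2. Psme3 had the most negative value, -0.45 ± 0.16 (SE, edgeR adjusted p = 0.176), at 140, 138 and 128 CPM with the LSD1 against 192, 161 and 202 CPM with the HDAC3 hairpin. These ranges did not overlap, for 1 member against 4.82% of all genes, and none was separated in the other direction (background 5.69%). The value of Psme3 was -0.60 without the 5 libraries. Psmb11 had the most positive value, 0.64 ± 0.51, and was at 0.23 without LSD1 replicate 1.

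The no-target hairpin against IL3-stimulated wild type compares transduced and selected with untreated cells, where transduction, selection and the hairpin cannot be told apart. It shares its libraries with the comparisons above. No member was called by edgeR or DESeq2 (edgeR background 0%), while 9 of 44 had an unadjusted p under 0.05, all lower with the hairpin, against 16.9% of all genes, and DESeq2 gave 8. They were the alpha genes Psma3, Psma4, Psma5 and Psma6, the ATPase gene Psmc1, the lid gene Psmd7, Psmd5, Psmb10 and Psmc3ip. The median was -0.25 against 0.01 over all genes, with 39 of 44 negative, and -0.09 without the 5 libraries, of which 2 are no-target libraries.

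Psmc1 and Psmd7 had the smallest adjusted p of the members (edgeR, 0.215 for both), Psmc1 with a log2 fold change of -0.54 ± 0.17 (SE). It was at 139, 183, 124, 170 and 167 CPM with the hairpin against 226, 238, 220, 223 and 235 CPM in stimulated wild type. Psma5, Psma6, Psmc1, Psmd5 and Psmd7 were lower in all 5 hairpin libraries than in all 5 wild-type libraries, 5 of 44 against 3% of all genes, and none was higher in all (background 2.35%). Psmd5 was at 126, 136, 133, 129 and 128 CPM against 149, 159, 168, 145 and 160 CPM (-0.26 ± 0.10, SE, edgeR adjusted p = 0.237). The nearest libraries of the groups were at 183 and 220 CPM in Psmc1 and at 136 and 145 CPM in Psmd5. Members named because their ranges did not overlap, here and in the other comparisons, were chosen after their values were seen.

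Psmb10 had the most negative value, -0.75 ± 0.25 (SE, edgeR unadjusted p = 0.00716, adjusted p = 0.218). It was at 52.2, 74.7, 28.6, 39.6 and 50.9 CPM with the no-target hairpin, and a single hairpin library, replicate 2, lay above the lowest stimulated wild-type library. In the 12 libraries of the other 4 hairpins it was at 29.2 to 66.4 CPM, and in the 10 wild-type libraries at 73.4 to 201 CPM. This split was chosen after the values were seen, and the share of all genes that it separates was not computed. Without the 5 libraries the log2 fold change of Psmb10 for no-target against stimulated wild type was -0.60. Psme4 was the most positive, 0.27 ± 0.14, at 170, 162, 250, 178 and 149 CPM against 145, 155, 149, 147 and 155 CPM, where no-target replicate 3 was the highest. The value of Psme4 was 0.14 without that library and 0.11 without the 5 libraries. Psmb8 (-0.07 ± 0.27) and Psmb9 (-0.06 ± 0.28) were near 0, and without the 5 libraries they were at 0.21 and 0.25.

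The log2 ratio of each immunoproteasome gene to its counterpart within a library describes the balance of the 2 transcripts. Proteins and assembled cores were not measured. The ratio is of CPM with no correction for length, so it is set between groups only, and the groups differ in the kinds of library they hold. For Psmb10 over Psmb7 it was -0.91 ± 0.29 (SD, n = 5) in deprived and -1.21 ± 0.20 in stimulated wild type, and -1.71 ± 0.37 (n = 5) with the no-target hairpin. It was -1.60 ± 0.15, -2.06 ± 0.31, -1.96 ± 0.29 and -1.67 ± 0.25 with the STAT5A, STAT5B, LSD1 and HDAC3 hairpins (n = 3 each). The mean ratio was thus lower in each hairpin group than in both wild-type groups, although single libraries overlapped. Stimulated wild type lay at -1.442 to -0.9935, while no-target replicate 1 was at -1.235 and HDAC3 replicate 1 at -1.384. Differences among the hairpin groups were not tested.

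For Psmb8 over Psmb5 the ratio was 1.23 ± 0.25 in deprived and 1.08 ± 0.24 in stimulated wild type, 1.33 ± 0.21 with the no-target, 1.34 ± 0.73 with the STAT5A, 1.00 ± 0.45 with the STAT5B, 1.05 ± 0.29 with the LSD1 and 1.66 ± 0.22 with the HDAC3 hairpin. All 3 HDAC3 libraries (1.48 to 1.90) were in the upper part of the range, and the no-target libraries spanned 1.12 to 1.68. Libraries with few multi-mapped reads had the lowest ratio of their group: deprived replicate 2 (0.96), stimulated replicate 2 (0.80), STAT5A replicate 3 (0.51) and STAT5B replicate 2 (0.71). LSD1 replicate 1, with many reads outside genes, was at 1.39 against 0.89 and 0.88, while HDAC3 replicates 1 and 2 (1.48 and 1.60) were under replicate 3 (1.90). The part of the kind of library was not tested. For Psmb9 over Psmb6 the ratio was -1.17 ± 0.18 and -1.20 ± 0.07 in wild type, -0.79 ± 0.22 with the no-target, -0.66 ± 0.73 with the STAT5A, -1.41 ± 0.89 with the STAT5B, -1.01 ± 0.21 with the LSD1 and -0.67 ± 0.26 with the HDAC3 hairpin. The STAT5A libraries ranged from -1.51 to -0.19 and the STAT5B libraries from -2.27 to -0.49, so that they overlapped.

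The fold changes of the members also went with transcript length in most comparisons. Across the 44 members, Spearman's rho between log2 fold change and principal transcript length was 0.556 for IL3 against deprived cells, -0.527 for STAT5A, -0.378 for STAT5B, -0.259 for LSD1 and 0.437 for HDAC3 against no-target, and 0.442 for no-target against wild type. Across 10773 tested genes it was 0.326, -0.525, -0.495, -0.115, 0.442 and 0.524. The members were thus ordered by length in the same direction as all genes in these 6 comparisons. For STAT5A against STAT5B, rho with length was 0.0138 in members and 0.0754 in all genes. For LSD1 against HDAC3 it was -0.421 and -0.386. Fold changes for IL3 against deprived cells also went with the GC content of the longest transcript, at a rho of -0.656 in members and -0.317 in all genes. In the other comparisons the members' rho with GC content lay between -0.303 and 0.245. The hairpin comparisons share their no-target libraries, so their values are not independent of each other.

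Of the genes that build, control or feed the proteasome, listed with earlier results of these data known, 1 passed the test in one of the 5 comparisons of IL3 or a knockdown with its control. Zfand5, which encodes a ubiquitin-binding protein that stimulates the 26S proteasome, rose with IL3. It was at 87.8, 91.7, 70.9, 63.1 and 64.8 CPM in deprived and 139, 181, 150, 154 and 146 CPM in stimulated wild type, with no overlap and a log2 fold change of 1.02 ± 0.15 (SE, edgeR adjusted p = 9.40e-05). It was thus 1 of 20 genes of proteasome gene control and shuttling called with IL3, against 3.82% of all genes, and the list had 0 called in each knockdown. The 5 chaperones of 20S assembly (Psmg1 to Psmg4 and Pomp) had 0 called in all 8 comparisons. Their median for IL3 against deprived cells was -0.30, and -0.07 without deprived replicate 3. The 6 genes of ubiquitin and its activating enzymes, the 14 genes of MHC class I presentation and the 2 measured 19S partners with other symbols also had 0 called in the fit without pairing.

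The replicate block gave other counts for IL3 against deprived cells in a fit of these lists chosen after the data were seen. It called 21.3% of all genes, 12.6% higher and 8.66% lower. Of the 20 genes of control and shuttling, Nfe2l1 (a factor that drives proteasome genes), Akirin2, Zfand2a and Zfand5 were called higher and 0 lower. Of the 14 genes of MHC class I presentation, 1 was called, Tap1, the neighbour of Psmb9. It was at 150, 138, 181, 153 and 159 CPM in deprived and 139, 108, 121, 113 and 113 CPM in stimulated libraries 1 to 5, lower in all 5 pairs. Its log2 fold change was -0.39 (edgeR adjusted p = 0.0122 with the block and 0.171 without), and its exons overlap those of Psmb9. Tap2 was at -0.31 with the block (adjusted p = 0.0534 in edgeR). Of the 6 ubiquitin genes, Uba6 was called higher and Ubb lower, and the chaperones of 20S assembly had 0 called. The block without replicate 3 called 15.4% of all genes higher and 13.6% lower. There, 7 of the 20 genes of control and shuttling were higher and 2, Ubqln4 and Ipo9, were lower. In that fit 3 of the 14 genes of MHC class I presentation were called lower, and Ubb was not called.

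Among markers of other cell types, the macrophage gene Cd68 rose with IL3, from 6.61 ± 0.96 to 14.4 ± 3.67 CPM (edgeR adjusted p = 0.00489). Lyz2 did not, with a log2 fold change of -0.04 (edgeR adjusted p = 0.965). Lyz2 rose with the STAT5B hairpin, from 5.59 ± 1.13 to 13.1 ± 2.78 CPM (edgeR adjusted p = 0.0453). Cd68 was then at 15.1, 18.2 and 15.4 CPM, within the 7.98 to 20.7 CPM of the no-target libraries. Each was 1 of 2 macrophage markers tested, against 3.82% (IL3) and 0.34% (STAT5B) of all genes called. Csf1r stayed at or under 0.689 CPM with Marco at 0 in all 27 libraries. The part of these markers in the values of Psmb8 and Psmb9 was not tested.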

How the data were processed

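RNA-seq of 27 Ba/F3 libraries in 7 groups was deposited by the authors as raw read counts per gene, 1 file per library. Per the submitters' processing notes, which give no order or settings, the tools were Trimmomatic 0.30, TopHat2 2.0.10, HTSeq 0.5.4p5 and DESeq2 1.2, with the build mm10. The counting mode and annotation are unstated. The 5 summary lines of each file, which name no gene, held 22.4 to 36% of all reads listed and were left out. Groups came from the labels.

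All 24000 gene rows entered 1 edgeR fit (4.0.16, R 4.3.3), with TMM scaling, a filter on low counts by group and the quasi-likelihood test with Benjamini-Hochberg adjustment over 12073 genes. The threshold was an adjusted p of 0.05. A total of 8 comparisons was made, and the procedure was tested on simulated data. DESeq2 1.42.0, other scaling and filters, fits of only the groups compared, terms for the kind of library and leaving out replicates were alternatives. Kinds of library were set at 13% of uniquely placed reads outside genes and at 0.195 multi-mapped reads per counted read. A log2 ratio of paired genes used a prior count of 2. Among the 42 pairs of libraries within groups, counts differed by more than sampling noise in every pair (chi-square per degree of freedom of 9.9 or more).

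Equal replicate numbers paired the wild-type libraries, since deviations from the group means correlated in 5 of 5 pairs (r = 0.375 to 0.716). The pairing comes from the data, as the labels give only numbers. Lengths and positions came from GENCODE vM21 (GRCm38), promoters from RefSeq (GRCm38.p6). The members and lists were chosen with earlier results of these data known. A listed marker gene is not reported here. Values are given for any member, with values by library and fold changes for Psmb5 to Psmb10 and Psme1 to Psme4, for members called, for the most positive and negative per comparison, and for the highest and lowest per kb in each subcomplex.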

Additional observations from a re-analysis of the deposited data

Results flagged for a closer look

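Dixon's criterion was applied to 33 sets of values, each of 1 gene or the core sum in 1 group of 4 or more libraries. In 9 of the 33 sets, 1 library lay far from the others of its group. Chance gives about 1 in 20 for a single set. The sets share libraries and are not independent, so the 9 cannot be read against that rate. Of these, 4 were deprived wild-type replicate 3. It had a summed level of the core subunits of 10700 CPM (others 6414 to 7279), and levels of 480.5 CPM for Psmb6 (others 206 to 260.7), 410.7 CPM for Psmb8 (others 179.5 to 214.1) and 451.8 CPM for Psme1 (others 225.8 to 249.7). IL3-stimulated wild-type replicate 3 was high in 3 genes, with 233.8 CPM for Psmb6 (others 205.3 to 211.1), 110.5 CPM for Psmb9 (others 87.39 to 93.0) and 267.5 CPM for Psme1 (others 210.8 to 222.9). Psme4 was high in deprived replicate 2, at 157.7 CPM (others 145.1 to 148.5), and in no-target replicate 3, at 250.4 CPM (others 148.6 to 177.6), a library with many reads outside genes. Psmb6 and Psme1 were thus high in both wild-type libraries numbered 3. The cause was not tested.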

How the results depend on the processing

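The count of members called was 0 in all 8 comparisons under each alternative, except that IL3 against deprived cells gave 1 with the replicate block and 5 with the block without replicate 3, where genes called overall went from 461 to 2569 and 3495. The replicate block changed no other count of members called. Replicate numbers were not taken to pair the other groups, since 0 of 3 (STAT5A, STAT5B) to 2 of 3 (LSD1) pairs, and 0 of 5 for no-target against wild type, correlated above 0.1. Leaving out 1 library gave 0 called members throughout, while the members' median ran from -0.22 to -0.04 for IL3 (-0.04 without deprived replicate 3), 0.11 to 0.28 for STAT5A, 0.09 to 0.34 for STAT5B, -0.02 to 0.27 for LSD1, -0.41 to 0.01 for HDAC3 (-0.41 without HDAC3 replicate 3) and -0.33 to -0.15 for no-target against wild type. Of the log2 fold changes of named genes that were not called, 40 values changed sign and 686 did not. Without the 5 libraries rich in reads outside genes, with a term for the kind of library and among common libraries alone, Psmb8 was at -0.14, -0.09 and -0.0022 for STAT5B and 0.21, 0.19 and 0.20 for no-target against wild type, and Psmb9 at 0.39, 0.11 and 0.39 for HDAC3 and 0.25, 0.26 and 0.23 for no-target against wild type. Psmb3 for STAT5A was at -0.064 with the term and -0.079 among common libraries. With the replicate block, Psmb9 was at 0.20 for STAT5B, 0.038 for LSD1 and 0.030 for LSD1 against HDAC3. Leaving out 1 library, Psmb8 ranged from -0.018 to 0.29 for STAT5B, -0.39 to 0.020 for LSD1, -0.49 to 0.33 for HDAC3, -0.21 to 0.079 for no-target against wild type and -0.53 to 0.28 for LSD1 against HDAC3. Psmb9 ranged from -0.22 to 0.095, -0.37 to 0.13, -0.76 to 0.15, -0.21 to 0.11 and -0.30 to 0.61 in the same order. Psma8 ranged from -0.56 to 0.022 for STAT5B and Psmb11 from -0.78 to 0.14 for STAT5A against STAT5B. Where 1 library was left in a group, it was assumed to vary like the other groups. The cause of these changes was not tested. Counts were lowest for Psmb11 (5 to 38 per library) and Psme2b.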
